A study of Mus musculus with 23 samples.

Results

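STAT5 feedback and target genes were read across 4 populations of blood stem and progenitor cells sorted from mouse bone marrow. The set holds 10 genes chosen by symbol, all found among the 24454 genes of the deposited count table: the feedback inhibitors Cish, Socs1, Socs2 and Socs3, the kinases Pim1, Pim2 and Pim3, and the regulators Id1, Gadd45g and Bcl6. All 10 passed the filter on low counts in both library protocols. Wild-type (WT) mice were compared with SclCre;V617F (SF1) mice, called V617F here, in which the V617F form of the kinase JAK2 is switched on by a tamoxifen-inducible Cre under Scl (Tal1) control. Both genotypes were C57BL/6, both were given tamoxifen for 5 days and were sampled after 12 weeks; the age of the mice was not given. Long-term stem cells (LT-HSC) were sorted as lineage-negative, Kit+, Sca-1+, CD48- and CD150+ cells, and in other sorts the CD41- and CD41+ cells of that gate were collected apart. Megakaryocyte progenitors (MkP) were the lineage-negative, Kit+, Sca-1-, CD150+ and CD41+ cells. SMART-Seq v2 was used for LT-HSC and MkP and SMART-Seq v4 for both CD41 fractions, so levels were compared only within a protocol. Each of the 8 groups had 3 libraries except WT CD41+ HSC, which had 2. The labels do not say whether libraries came from separate mice, so the p-values measure the spread between these libraries. All 3 V617F LT-HSC libraries came from males and all 3 WT LT-HSC libraries from females, so sex and genotype cannot be told apart in LT-HSC. In the CD41 fractions the V617F libraries numbered 2 came from a male and all others from females, and every MkP library came from a female. Between V617F MkP and V617F LT-HSC, and in the difference of genotype effects between those populations, sex and population therefore cannot be told apart either.

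Cytokine receptors such as those for erythropoietin and IL-3 signal through JAK2, which phosphorylates STAT5 so that it enters the nucleus and switches on target genes. The V617F change makes the kinase active without cytokine, and it is the common driver of myeloproliferative neoplasms. Cish encodes CIS, and together with the SOCS genes it belongs to a family whose proteins bind activated receptors or JAK kinases and damp the signal that induced them. The PIM genes encode serine/threonine kinases that promote survival and growth. Id1 encodes an inhibitor of basic helix-loop-helix factors, Gadd45g a stress-response protein of the GADD45 family, and Bcl6 a transcriptional repressor; STAT5 is known to repress Bcl6 in lymphoid cells. Several members answer to other signals too, Socs3 to STAT3 and Id1 to BMP and SMAD factors.

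RefSeq promoter windows (GRCm38.p6, 250 bases before to 50 after a start, 300 in all) were matched by symbol for 8 of the 10 members, all but Socs2 and Id1, with 2 starts each for Pim1 and Bcl6. They were searched for the palindromic STAT motif TTCNNNGAA, where N is any base and which reads the same on both strands. Matches lay in 4 of the 10 windows (40%), those of Cish, Socs3 and both Bcl6 starts, against 2726 of all 32851 windows of this length (8.3%). By gene, 3 of the 8 members had a match (37.5%), and no share by gene was taken over all genes. The windows of Socs1, both starts of Pim1, Pim2, Pim3 and Gadd45g held no match. The windows with matches are shown because they are where the letters of a STAT site occur among the members. They are printed 5′ to 3′ on the strand of the gene, to 30 bases after the start, with motif matches in capitals. Cish lies at chr9:107296409-107296688 on the plus strand, Socs3 at chr11:117969337-117969616 on the minus strand, Bcl6 start 1 at chr16:23988823-23989102 and Bcl6 start 2 at chr16:23981254-23981533, both on the minus strand.
Cish: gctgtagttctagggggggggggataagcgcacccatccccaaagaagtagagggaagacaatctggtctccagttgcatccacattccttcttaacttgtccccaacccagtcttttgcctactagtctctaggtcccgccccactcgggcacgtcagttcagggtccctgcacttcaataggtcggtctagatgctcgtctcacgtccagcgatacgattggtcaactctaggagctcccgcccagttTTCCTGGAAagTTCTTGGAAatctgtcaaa
Socs3: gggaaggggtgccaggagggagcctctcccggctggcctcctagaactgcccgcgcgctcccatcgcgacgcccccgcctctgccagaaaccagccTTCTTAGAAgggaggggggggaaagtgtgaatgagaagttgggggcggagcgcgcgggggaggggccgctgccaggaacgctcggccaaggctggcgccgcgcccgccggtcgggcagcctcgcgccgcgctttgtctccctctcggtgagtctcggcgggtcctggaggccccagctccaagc
Bcl6 start 1: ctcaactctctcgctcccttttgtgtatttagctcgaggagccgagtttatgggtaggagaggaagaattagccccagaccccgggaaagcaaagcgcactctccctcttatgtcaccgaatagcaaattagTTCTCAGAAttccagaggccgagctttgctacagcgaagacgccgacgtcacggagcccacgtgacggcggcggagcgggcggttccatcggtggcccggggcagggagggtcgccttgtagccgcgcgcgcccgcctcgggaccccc
Bcl6 start 2: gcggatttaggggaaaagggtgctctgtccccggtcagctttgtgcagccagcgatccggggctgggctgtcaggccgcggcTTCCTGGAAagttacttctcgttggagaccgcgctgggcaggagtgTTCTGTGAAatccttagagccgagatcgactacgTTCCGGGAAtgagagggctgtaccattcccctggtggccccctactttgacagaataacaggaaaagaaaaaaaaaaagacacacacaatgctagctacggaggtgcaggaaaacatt
In Cish both matches lay at the start itself, at bases 0 to 8 and 11 to 19 with the first transcribed base counted as 0. The Socs3 match began at base -154 and that of the first Bcl6 start at -118. The second Bcl6 start had 3 matches, beginning at -168, -122 and -88. The transcribed bases of the Socs3 and the second Bcl6 window were not found in a GENCODE transcript of the gene, unlike those of the other windows. A match describes letters only, and no binding was measured in these samples.

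**Figure D1:**
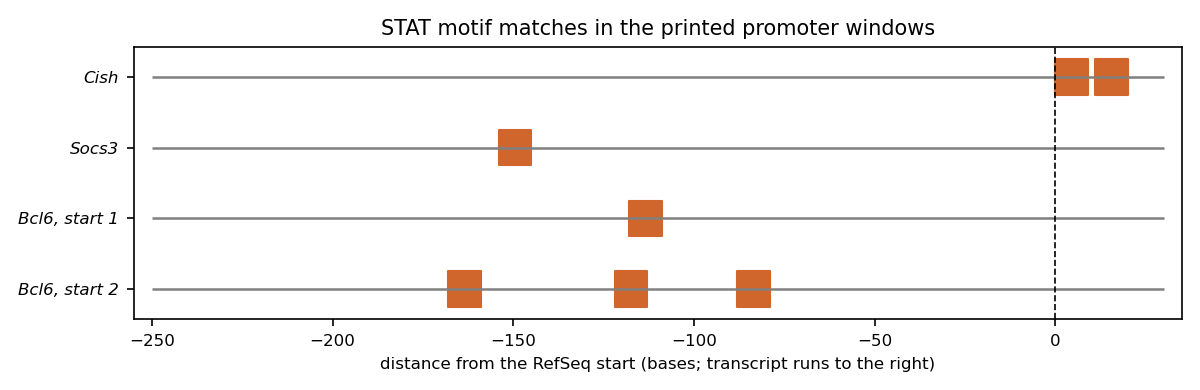
Positions of TTCNNNGAA matches (orange) along the 4 printed windows, with distance from the RefSeq start in bases on the x axis and 1 line per window. The 2 Cish matches sit at the start, and the others lie between 168 and 80 bases before it.

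Libraries held between 17.6 and 49.2 M counts (median 22.2 M), and 3 counts, taken as the detection floor, equalled 0.0597 to 0.171 CPM (counts per M, scaled by TMM library factors). This floor and other limits from counts cover counting error only. Itga2b and Ly6a followed the gates: Itga2b (CD41) was 96.4 to 232 CPM in CD41- and 611 to 916 CPM in CD41+ libraries, and Ly6a (Sca-1) was 0.686 to 2.57 CPM in MkP. Cd48, whose protein was selected against in the stem cell gate, was low but differed by genotype in the CD41 fractions. It was 1.37 to 2.42 CPM in WT and 6.21 to 9.67 CPM in V617F CD41- HSC. In CD41+ HSC it was 1.47 to 2.15 CPM in WT and 3.64 to 9.28 CPM in V617F. In LT-HSC, the same gate without the split, Cd48 overlapped between genotypes, at 2.69 to 15.7 CPM in WT and 4.54 to 5.93 CPM in V617F. Jak2 counts do not separate the V617F allele. Jak2 stood at 185 to 238 CPM in WT and 219 to 258 CPM in V617F CD41- HSC, and at 165 to 193 against 174 to 209 CPM in CD41+ HSC. Its libraries were apart in LT-HSC, at 14.5 to 36.5 against 65.6 to 107 CPM, as for 13.6% of all genes in that direction. They were also apart in MkP, at 35.8 to 46.4 against 102 to 128 CPM, as for 21%. Jak2 did not pass the genotype test described below in any population. In the v2 libraries genotype went with other measures: 11995 ± 491 (SD, n = 3) genes had counts in WT MkP and 14953 ± 281 in V617F MkP, 13365 ± 466 in WT LT-HSC and 15547 ± 217 in V617F LT-HSC. The summed level of 12 granulocyte markers, all with counts in every group, was 8445 to 12341 CPM in WT and 1162 to 2659 CPM in V617F MkP, and 3733 to 6821 CPM in WT and 475 to 1184 CPM in V617F LT-HSC. In the CD41 fractions the same sum was 116 to 577 CPM in WT and 166 to 202 CPM in V617F CD41- HSC, and 86 to 94 against 54.2 to 138 CPM in CD41+ HSC. WT CD41- library 1 alone held 577 CPM, against 116 and 165 CPM in libraries 3 and 4. Its TMM factor was 0.875 against 1.04 and 1.04. Summed markers of the stem cell gate were 5518 against 3307 and 3274 CPM, and erythroid markers 3958 against 1816 and 2455 CPM. The part of these in the member values was not tested. The WT MkP sum rests largely on Mpo, at 5799 to 9874 CPM in WT and 663 to 1717 CPM in V617F MkP. In LT-HSC Mpo was 469 to 1300 CPM in WT and 39.5 to 172 CPM in V617F. In bulk samples fewer cells of a type and less RNA per cell cannot be told apart, which holds for every level below.

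In CD41- HSC, 7 of the 10 members passed the genotype test (edgeR quasi-likelihood, Benjamini-Hochberg adjusted p under 0.05 over all genes), where 13.4% of all tested genes passed. Socs2, Cish, Pim2 and Id1 rose in V617F cells, and Pim3, Gadd45g and Bcl6 fell; 5.48% of all genes rose and 7.94% fell. The median log2 difference was 0.36 over the members and -0.01 over all tested genes. The members moved in both directions, and within the PIM family 1 kinase rose while another fell. These 7 were also the members whose WT and V617F libraries did not overlap, which held for 16% of all genes in the higher and 14.3% in the lower direction. Log2 differences are given ± their standard error. For each gene the fit shares its estimate of spread over all groups of a protocol.

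Among the feedback inhibitors, Socs2, which damps growth hormone and cytokine receptor signals, stood at 36.2, 21.8 and 23.3 CPM in WT libraries 1, 3 and 4 and at 203, 215 and 149 CPM in V617F libraries 1, 2 and 3. The lowest V617F library lay far above the highest WT library. The log2 difference was 2.80 ± 0.21 (adjusted p = 3.21e-05). Cish stood at 79.5, 111 and 76.9 CPM in WT and at 163, 248 and 163 CPM in V617F, without overlap, with V617F library 2 the highest. Its log2 difference was 1.10 ± 0.24 (adjusted p = 0.0201), and the call was lost without WT library 1 or V617F library 2 (adjusted p = 0.0687 and 0.0688). Socs1, an inhibitor of JAK kinases best known from interferon signalling, stood at 24.2, 26.7 and 15.2 CPM in WT and 24.1, 24.7 and 21.3 CPM in V617F. Its groups overlapped and it did not pass (log2 0.08 ± 0.20, adjusted p = 0.782). Socs3, the inhibitor of gp130 and G-CSF receptor signals, stood at 15.7, 19.1 and 14 CPM in WT and 23, 17.6 and 22.8 CPM in V617F, again with overlap (log2 0.38 ± 0.24, adjusted p = 0.265).

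Of the kinases, Pim2 stood at 57.6, 71.3 and 74.7 CPM in WT and 145, 157 and 157 CPM in V617F, where the 3 libraries lay close together above every WT library. Its log2 difference was 1.17 ± 0.17 (adjusted p = 0.00339). Pim3 went the other way, at 83.8, 74.4 and 47.4 CPM in WT and 41.8, 37 and 41.9 CPM in V617F. Its groups did not overlap, but WT library 4 lay near the V617F values. The log2 difference was -0.77 ± 0.19 (adjusted p = 0.029), and leaving out 1 library ended the call in 5 of 6 cases, all but WT library 4 (adjusted p up to 0.0966), as did sex as a term (0.0505), omission of the male's libraries (0.0908) and a fit of these 2 groups alone (0.0857). Pim1 stood at 63.1, 72.7 and 54.4 CPM in WT and 85.5, 61.6 and 94.2 CPM in V617F, with overlap through V617F library 2 (log2 0.34 ± 0.17, adjusted p = 0.153).

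Of the regulators, Bcl6 stood at 10.8, 15.9 and 9.37 CPM in WT and 4.28, 2.97 and 3.5 CPM in V617F. Every V617F library held less than any WT library, and the log2 difference was -1.74 ± 0.31 (adjusted p = 0.00847). Gadd45g stood at 11.7, 13.5 and 13.7 CPM in WT and 6.82, 5.67 and 5.65 CPM in V617F, with little spread in either group (log2 -1.10 ± 0.15, adjusted p = 0.00295). Id1 stood at 2.71, 1.97 and 1.26 CPM in WT and 6.45, 4.32 and 3.64 CPM in V617F. Its groups did not overlap (log2 1.28 ± 0.30, adjusted p = 0.0234), and the call was lost without WT library 3, V617F library 1 or V617F library 2 (adjusted p between 0.0538 and 0.0914), without the male's libraries (0.0658) or in a fit of these 2 groups alone (0.0941). The calls of Socs2, Pim2, Gadd45g and Bcl6 held whichever of the 6 libraries was left out. Beside the falls of Pim3, Gadd45g and Bcl6, 7 of 21 measured immediate early genes, which sample handling can also move, fell in the same comparison and none rose; their part in these falls was not tested.

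**Figure D2:**
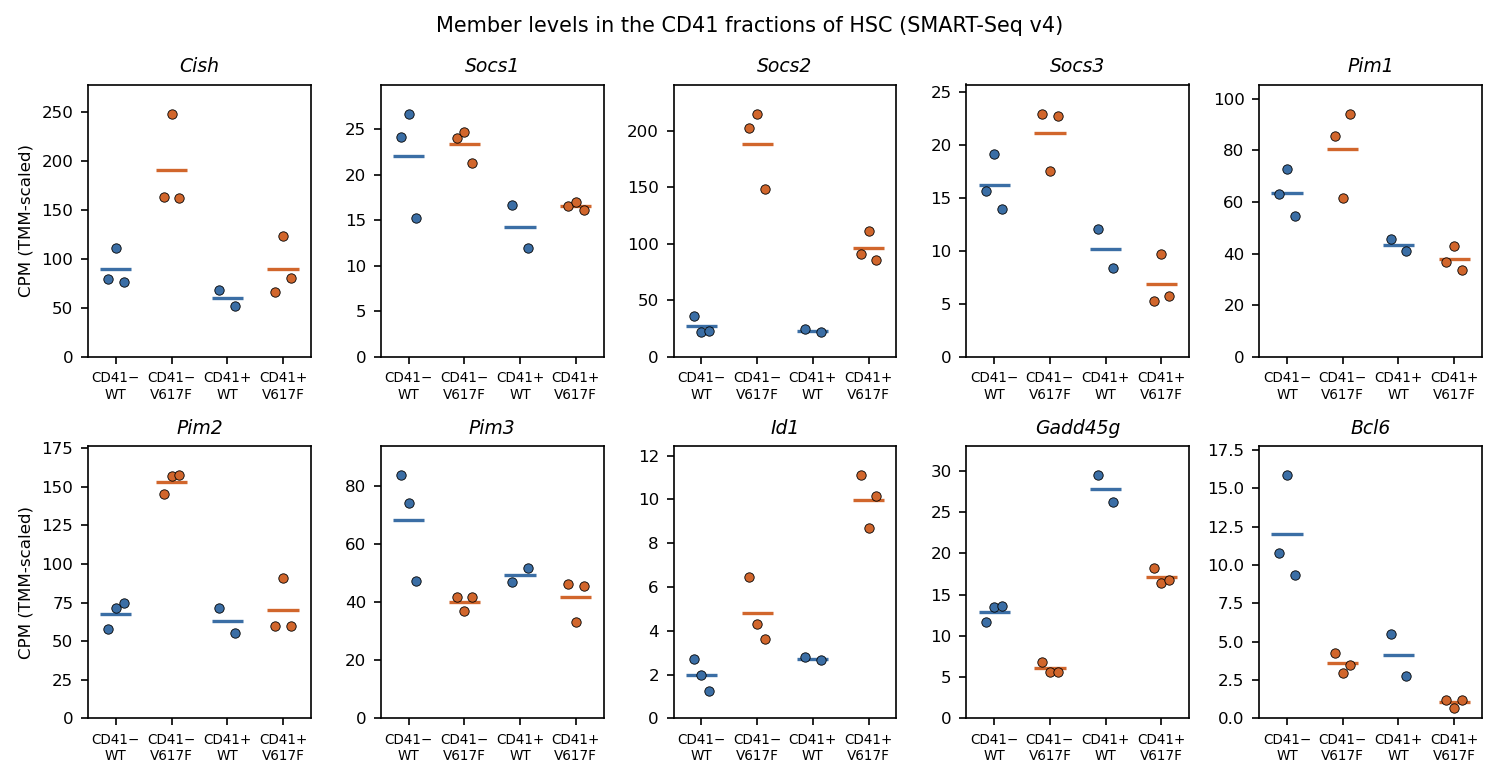
CPM of each member (y axis, linear, from 0) in every library of the CD41 fractions, WT in blue and V617F in orange; dots are libraries and lines are group means. Socs2 is higher in V617F in both fractions, Cish and Pim2 are separated by genotype in CD41- HSC, and Bcl6 and Gadd45g are lower in V617F in both.

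In CD41+ HSC, the part of the stem cell gate with the platelet integrin CD41 on its surface, 3 of the 10 members passed the genotype test, Socs2 and Id1 higher and Bcl6 lower, where 1.16% of all genes passed (0.221% higher and 0.94% lower). The median log2 difference was -0.03 over the members and 0.03 over all genes. Only 2 WT libraries, numbers 3 and 4, entered this comparison. Socs2 stood at 24.3 and 21.8 CPM in WT and 90.7, 112 and 85.8 CPM in V617F, with no overlap, as for 23.9% of all genes in that direction (log2 2.06 ± 0.24, adjusted p = 0.0015). Leaving out any 1 of the 5 libraries did not end this call. Id1 stood at 2.79 and 2.67 CPM in WT and 11.1, 8.67 and 10.2 CPM in V617F, well apart (log2 1.87 ± 0.34, adjusted p = 0.0208). The call was lost without WT library 3 or 4 or V617F library 1 or 3, with adjusted p up to 0.255. Bcl6 was low in V617F, at 1.2, 0.698 and 1.22 CPM against 5.47 and 2.76 CPM in WT (log2 -1.98 ± 0.37, adjusted p = 0.0257). Its call was lost without WT library 3 or any V617F library, with adjusted p up to 0.384, without the male's libraries of both fractions (0.0862) and with limma-voom (0.109).

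The other 7 members did not pass in CD41+ HSC. Gadd45g stood at 29.5 and 26.2 CPM in WT and 18.2, 16.4 and 16.7 CPM in V617F, without overlap, as for 17.8% of all genes in that direction (log2 -0.70 ± 0.16, adjusted p = 0.0629), and it passed with DESeq2, with limma-voom and in a fit of these 2 groups alone (adjusted p = 0.00198, 0.0477 and 0.0205). Cish stood at 68.4 and 52 CPM in WT and 65.8, 124 and 80.5 CPM in V617F, where library 2 was again the highest and library 1 lay within the WT range (log2 0.58 ± 0.27, adjusted p = 0.484). Pim2 stood at 71.4 and 55 CPM in WT and 59.8, 90.8 and 59.9 CPM in V617F. Only V617F library 2 lay above the WT libraries (log2 0.15 ± 0.19, adjusted p = 0.83), and the difference was slightly below 0 without it. Socs3 stood at 12.1 and 8.4 CPM in WT and 5.24, 9.72 and 5.72 CPM in V617F (log2 -0.57 ± 0.28, adjusted p = 0.498). The log2 differences of Socs1, Pim1 and Pim3 lay between -0.24 and 0.21, with standard errors of 0.19 to 0.23 and adjusted p of 0.754 to 0.796; the libraries of Pim3 were apart.

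**Figure D3:**
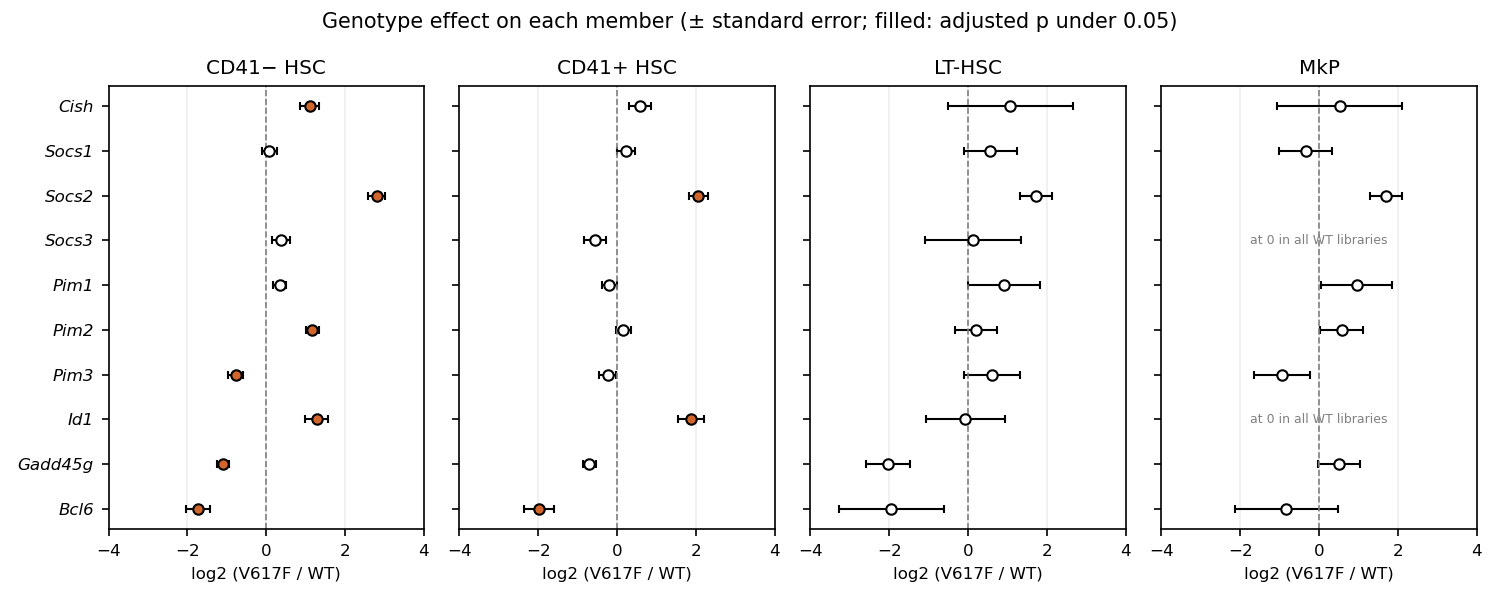
Log2 difference between V617F and WT (x axis) with its standard error for each member (y axis) in the 4 populations; filled points passed the test. Socs2 lies to the right of 0 in all 4, filled in the CD41 fractions; Socs3 and Id1 in MkP, which also passed, are not drawn because every WT library was at 0.

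Whether the V617F effect differed between the CD41 fractions was tested directly. No member passed, nor did any of the 14467 genes (0% called). At an unadjusted p under 0.05 there were 4 members, all with a lower V617F effect in CD41+ than in CD41- HSC. Pim2 had the smallest p, with a log2 difference between the effects of -1.02 ± 0.25 (unadjusted p = 0.00152, adjusted p = 0.566). The others were Socs3 (log2 -0.94 ± 0.36), Socs2 (log2 -0.74 ± 0.29) and Pim1 (log2 -0.55 ± 0.25), each with an adjusted p of 0.566 in edgeR. DESeq2 and limma-voom also called no member. Without WT CD41- library 4, the difference passed for Pim2 and Pim3.

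Between the fractions of V617F marrow, 8 of 10 members passed, where 34.3% of all genes did. Id1 and Gadd45g were higher in CD41+ than in CD41- HSC, and Cish, Socs2, Socs3, Pim1, Pim2 and Bcl6 were lower. The median log2 difference was -1.03 over the members against -0.02 over all genes. Among the members the largest fall was in Bcl6 (log2 -1.79 ± 0.35, adjusted p = 0.00178), followed by Socs3 (log2 -1.61 ± 0.25, adjusted p = 0.000408), whose highest CD41+ library at 9.72 CPM lay below the lowest CD41- library at 17.6 CPM. Pim2 (log2 -1.12 ± 0.17), Pim1 (log2 -1.09 ± 0.17), Cish (log2 -1.09 ± 0.24) and Socs2 (log2 -0.98 ± 0.19) differed by similar amounts, each without overlap, as for 27.7% of all genes in that direction, and with adjusted p between 0.000372 and 0.0043. Gadd45g was higher by a log2 difference of 1.5 ± 0.15 (adjusted p = 2.66e-05) and Id1 by 1.05 ± 0.28 (adjusted p = 0.0112); these 2 were apart as well, as for 28.4% of all genes in that direction. The Id1 call was lost without V617F CD41- library 3 (adjusted p = 0.0552) or without the male's libraries (0.0564). Libraries of equal number from the V617F fractions deviated together across genes, and with that number as a block Socs1 also passed, for 9 of 10 (log2 -0.49, adjusted p = 0.0171; 0.0742 without the block).

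Between the fractions of WT marrow, 3 of 10 members passed, where 34% of all genes did. Gadd45g was higher in CD41+ HSC (log2 1.10 ± 0.16, adjusted p = 0.000579), and Bcl6 (log2 -1.55 ± 0.35, adjusted p = 0.00671) and Pim1 (log2 -0.54 ± 0.19, adjusted p = 0.0427) were lower. Gadd45g was apart between the fractions in the higher direction, as for 27.4% of all genes, and Cish, Socs3, Pim1 and Bcl6 in the lower, as for 29.3%. The Bcl6 call was lost without WT CD41+ library 4 (adjusted p = 0.0953). The Pim1 call was lost on leaving out any 1 of the 5 libraries but WT CD41- library 4 (adjusted p up to 0.236), without the filter on low counts (0.065) and in a fit of these 2 groups alone (0.0882). Socs1 (log2 -0.63 ± 0.23, adjusted p = 0.0516), Socs3 (log2 -0.67 ± 0.28, adjusted p = 0.0774) and Cish (log2 -0.57 ± 0.27, adjusted p = 0.125) did not pass. Without WT CD41- library 4, which held the lowest levels of Cish, Socs1, Socs3, Pim1, Pim3, Id1 and Bcl6 in its group, 6 members passed. The 2 fraction comparisons and the 2 genotype comparisons share libraries, so their values are given side by side and not as separate support.

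The order of the members was compared per gene length, as CPM per kb of the length given in the file (mean ± SD; n = 3, or 2 for WT CD41+ HSC). In WT CD41- HSC Pim1 (36.2 ± 5.21), Pim2 (33.2 ± 4.44), Cish (29.6 ± 6.33) and Pim3 (28.3 ± 7.82, CPM per kb) led, and each overlapped with the next in its libraries. Socs2 stood seventh at 10.1 ± 2.94 CPM per kb. In V617F CD41- HSC Pim2 (75 ± 3.39), Socs2 (70.00 ± 13.1) and Cish (63.5 ± 16.4 CPM per kb) led, again with overlap between neighbours. Cish was only just apart from Pim1 (45.9 ± 9.64 CPM per kb). The lowest Cish library stood at 53.98 and the highest Pim1 library at 53.73 CPM per kb. In V617F CD41+ HSC Socs2 stood first, at 35.6 ± 5.06 CPM per kb, overlapping with Pim2 (34.4 ± 8.77). Bcl6 was the lowest member in both CD41+ groups, at 1.25 ± 0.585 CPM per kb in WT and 0.316 ± 0.0896 in V617F. It was also the lowest in V617F CD41- HSC (1.09 ± 0.201 CPM per kb). In V617F LT-HSC it was the lowest by mean (3.45 ± 1.59 CPM per kb), overlapping with Socs3. It was not the lowest in WT CD41- HSC, WT LT-HSC or either MkP group.

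The make-up of each family followed from these levels. Summed per kb, the 4 CIS and SOCS genes stood at 62.1 ± 10.7 (SD, n = 3) CPM per kb in WT and 159 ± 27 in V617F CD41- HSC. Socs2 made up 16.5% ± 4.96 of this sum in WT and 44.1% ± 3.67 in V617F, and 20.1% ± 2.14 against 44.6% ± 3.22 in CD41+ HSC. The share of Socs1 was 26.2% ± 3.25 in WT and 11.1% ± 1.1 in V617F CD41- HSC although its own level differed little, and that of Cish was 47.7% ± 5.42 and 39.8% ± 4.69. In the PIM family, summing to 97.7 ± 10 CPM per kb in WT and 137 ± 10.5 in V617F CD41- HSC, Pim2 made up 34.4% ± 6.88 in WT and 54.8% ± 4.86 in V617F, and Pim3 28.7% ± 6.3 and 12.1% ± 0.457. In CD41+ HSC the Pim2 share was 40.5% ± 4.16 in WT and 46.5% ± 6.34 in V617F, with overlapping libraries. The shares describe the tested levels again and were not tested themselves.

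**Figure D4:**
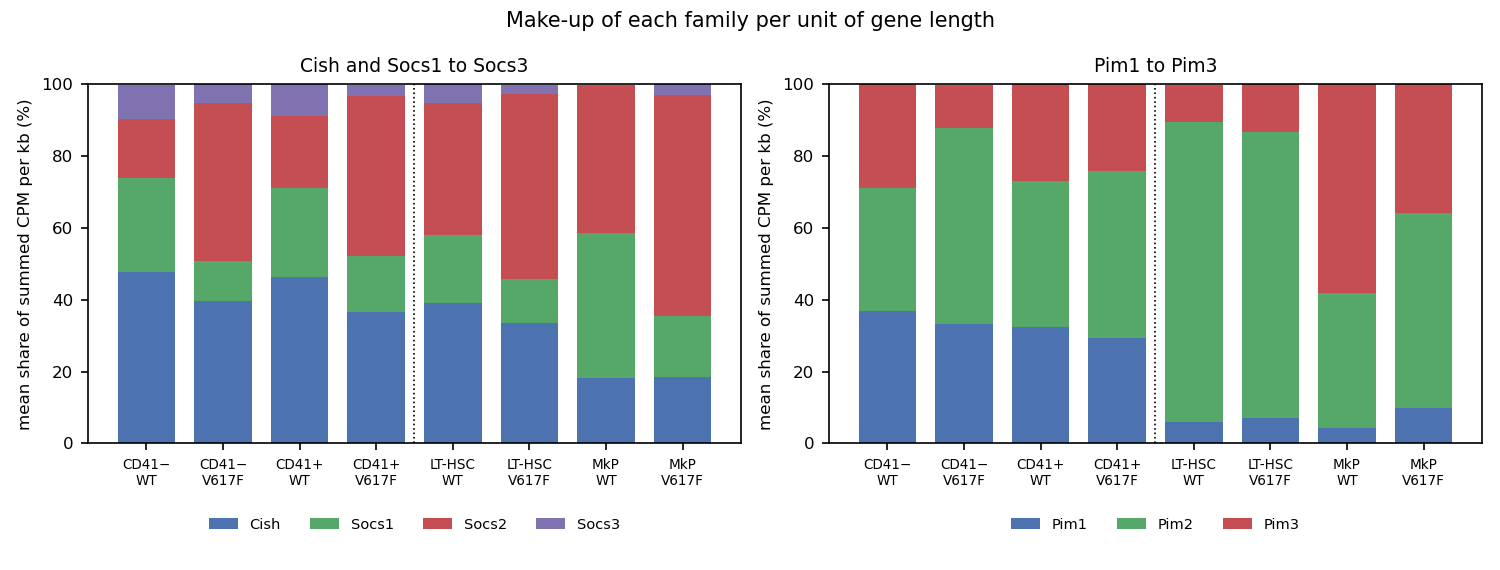
Mean share of each gene (y axis, percent of the family's summed CPM per kb) in the CIS and SOCS family (left) and the PIM family (right) for the 8 groups; the dotted line parts the SMART-Seq v4 groups from the v2 groups. The Socs2 share in CD41- HSC is 16.5% in WT and 44.1% in V617F.

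In LT-HSC, the same gate without a CD41 split, no member passed the genotype test, where 0.063% of all genes passed in edgeR, 9 genes in all (0.028% higher and 0.035% lower). At an unadjusted p under 0.05 there were 2 members, Socs2 and Gadd45g, which were also the 2 that DESeq2 called, while limma-voom called Socs2. The median log2 difference was 0.39 over the members and -0.05 over all genes. Socs2 stood at 60.8, 76.1 and 42.5 CPM in WT libraries 30, 31 and 32 and 166, 238 and 185 CPM in V617F libraries 6, 7 and 8. The groups did not overlap, as for 13.6% of all genes in that direction (log2 1.72 ± 0.40, adjusted p = 0.154 with edgeR, 0.00572 with DESeq2 and 0.0171 with limma-voom). Gadd45g stood at 100.2, 46.8 and 25 CPM in WT and 18.7, 13.7 and 9.63 CPM in V617F, also apart, as for 5.63% of all genes in that direction (log2 -2.03 ± 0.56, adjusted p = 0.172 with edgeR and 0.00945 with DESeq2). WT library 30 was the highest of its group in Gadd45g, Bcl6 and Pim1 and the lowest in Cish, Socs1, Socs3, Pim2 and Pim3. It stood apart from libraries 31 and 32 in other measures too. Its TMM factor was 0.71 against 0.952 and 1.02. Summed erythroid markers were 6908 against 1697 and 3361 CPM, megakaryocyte markers 901 against 3396 and 2638 CPM, and B and T cell markers 1124 against 153 and 204 CPM. Their part in the member values was not tested.

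Cish stood at 49.2, 96.3 and 74.9 CPM in WT and 82.9, 245 and 135 CPM in V617F LT-HSC, with 1 V617F library within the WT range (log2 1.07 ± 1.58, adjusted p = 0.91). Bcl6 stood at 83.7, 15.7 and 31.6 CPM in WT and 16.9, 10.5 and 6.58 CPM in V617F, where library 6 lay just above the lowest WT library (log2 -1.94 ± 1.34, adjusted p = 0.64). The standard errors of Cish and Bcl6 come from a spread shared with MkP and do not measure the LT-HSC libraries alone. In WT MkP libraries 30, 31 and 32 Cish stood at 37.3, 0 and 0 CPM and Bcl6 at 5.27, 0 and 11.5 CPM. In a fit of the LT-HSC groups alone neither gene passed. The other members overlapped between genotypes. Socs3 stood at 0.651, 12 and 15.6 CPM in WT and 9.03, 13.8 and 7.79 CPM in V617F. Pim1 stood at 14, 3.11 and 4.0 CPM in WT and 9.7, 16.5 and 13.6 CPM in V617F, and Pim2 at 104, 209 and 126 CPM and 149, 184 and 173 CPM. In these libraries Pim2 made up most of the PIM sum per kb, 83.7% ± 6.46 in WT and 79.6% ± 3.51 in V617F. Socs1, Pim3 and Id1 ranged from 10.5 to 30.3, 3.38 to 46 and 2.41 to 8.62 CPM over the 6 libraries. The part of the summed granulocyte marker level, which was higher in every WT than in any V617F library, was not tested for these values.

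In MkP, which give rise to megakaryocytes and platelets, 2 members passed the genotype test, Socs3 and Id1, both higher in V617F, where 1.75% of all genes passed (1.62% higher and 0.126% lower). The median log2 difference was 0.55 over the members and 0.08 over all genes. Socs3 had no count in any WT library and stood at 5.37, 2.03 and 0.384 CPM in V617F libraries 1, 2 and 3. Against the floor of 3 counts per library, 0.0828 CPM on average, this was at least 31.4-fold higher (adjusted p = 0.038). The call was lost on leaving out any 1 of the 6 libraries (adjusted p up to 0.108) and in a fit of these 2 groups alone (0.0634). The limit rests largely on V617F library 1, without which it was at least 14.6-fold. Id1 likewise had no count in WT and stood at 2.66, 2.48 and 0.531 CPM in V617F, at least 22.8-fold higher by group mean (adjusted p = 0.0209). Without V617F library 1 the limit was 18.2-fold. The Id1 call was lost without V617F library 1 or 2 (adjusted p = 0.0662 and 0.0644). Of the 232 genes that rose in MkP, 171 (73.7%) had no count in any WT library, against 1426 of the 14281 tested (9.99%).

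Socs2 did not pass in MkP but its groups were apart, as for 21% of all genes in that direction. It stood at 7.89, 22.6 and 17.6 CPM in WT libraries 30, 31 and 32 and 52.6, 49.1 and 55.1 CPM in V617F (log2 1.70 ± 0.40, adjusted p = 0.0545). It passed with DESeq2 and limma-voom (adjusted p = 0.00212 and 0.0434) and without WT library 31 (0.0368). Pim3 stood at 50.01, 56.2 and 33.4 CPM in WT and 31.2, 27.4 and 14.4 CPM in V617F, apart in the other direction, as for 9.99% of all genes (log2 -0.94 ± 0.70, adjusted p = 0.644). Cish had no count in WT libraries 31 and 32 and 37.3 CPM in WT library 30, against 18, 24.1 and 11.6 CPM in V617F. It did not pass, but did without WT library 30, which leaves a WT group at 0. Gadd45g stood at 21.9, 44.2 and 21.9 CPM in WT and 46.7, 37.5 and 40.8 CPM in V617F, overlapping (log2 0.51 ± 0.54, adjusted p = 0.798). Bcl6 stood at 5.27, 0 and 11.5 CPM in WT and 3.35, 3.36 and 2.69 CPM in V617F. Socs1, Pim1 and Pim2 overlapped as well, and Pim2 had 1 high V617F library at 77.9 CPM beside 17.4 and 19.4 CPM. Fewer genes were detected and the summed granulocyte marker level, largely Mpo, was higher in every WT MkP library, and the part of both in these values was not tested.

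**Figure D5:**
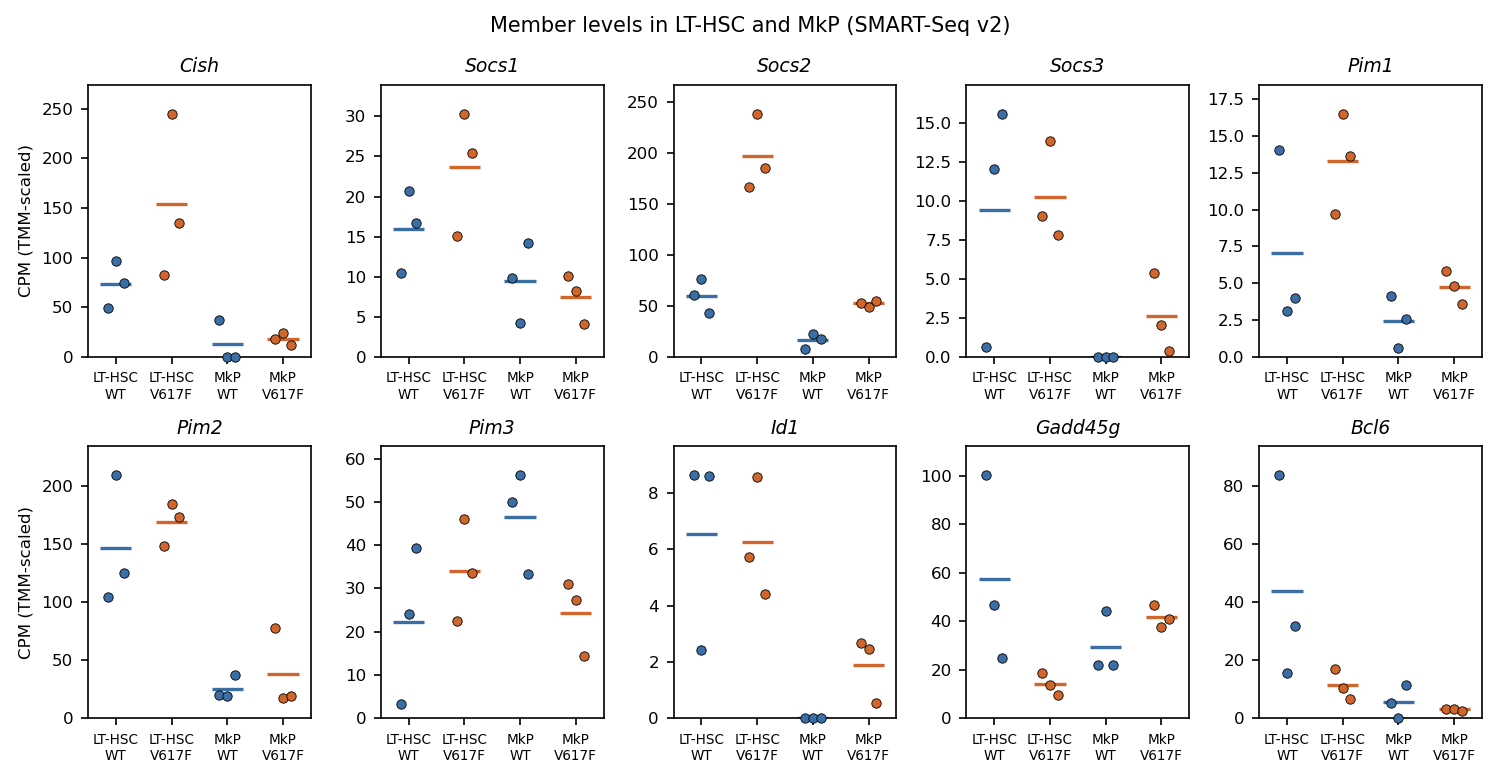
CPM of each member (y axis, linear, from 0) in every LT-HSC and MkP library, WT in blue and V617F in orange; dots are libraries and lines are group means. Socs2 is higher in V617F in both populations, Socs3 and Id1 are at 0 in all 3 WT MkP libraries, and Gadd45g is lower in V617F LT-HSC but overlaps in MkP.

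Between MkP and LT-HSC of WT marrow, 4 of 10 members passed, all lower in MkP, where 8.9% of all genes passed (2.32% higher and 6.58% lower). No member was higher in every WT MkP than in any WT LT-HSC library, as 8.39% of all genes were, and 6 were lower, as 12.1% were. Socs2 (log2 -1.90 ± 0.40, adjusted p = 0.0149) and Pim2 (log2 -2.51 ± 0.57, adjusted p = 0.0207) differed without overlap, and the Pim2 call was lost without WT MkP library 30 or 31 (adjusted p = 0.0541 and 0.0556). Socs3 and Id1, with no count in WT MkP, were at least 114-fold and 79.0-fold lower by group mean (adjusted p = 0.00837 and 0.00355). With single libraries left out these limits ranged from 76.4 to 167 for Socs3 and from 66.4 to 104 for Id1. WT LT-HSC library 30 held only 0.651 CPM of Socs3. In a fit of these 2 groups alone none of the 4 passed, where 14 genes did. Cish did not pass, but did with limma-voom (adjusted p = 0.0123) and without WT MkP library 30 (0.00024). In V617F marrow Socs2 alone passed, lower in MkP (log2 -1.91 ± 0.40, adjusted p = 0.0474), where 1.09% of all genes passed (0.378% higher and 0.714% lower), and the call was lost on leaving out any 1 of the 6 libraries (adjusted p up to 0.262). Pim2 (log2 -2.14 ± 0.56, adjusted p = 0.13) and Socs1 (log2 -1.66 ± 0.69, adjusted p = 0.397) were lower in every V617F MkP than in any V617F LT-HSC library, and Gadd45g was higher without overlap (log2 1.57 ± 0.55, adjusted p = 0.275); these 3 did not pass. In a fit of these 2 groups alone, where 2972 of 13554 genes passed, 7 members did: Cish, Socs1, Socs2, Pim1, Pim2 and Bcl6 lower in MkP and Gadd45g higher, with adjusted p between 0.000284 and 0.0128. The counts of 4 in WT and 1 in V617F thus became 0 and 7. Pim2 also passed with DESeq2, with limma-voom and without V617F MkP library 1 (adjusted p = 0.00456, 0.0259 and 0.0233). In V617F marrow 8 members were lower in every MkP than in any LT-HSC library, as 24.5% of all genes were, and 1 was higher, as 17% were. Per kb of length, Gadd45g led the members in both MkP groups, at 27.2 ± 12 CPM per kb in WT, overlapping with Pim3 (19.2 ± 4.86), and 38.6 ± 4.3 CPM per kb in V617F, apart from Socs2 as the next by mean (19.4 ± 1.11) but overlapping with the 1 high library of Pim2. In LT-HSC Pim2 had the highest mean, at 71.7 ± 27.3 CPM per kb in WT, overlapping with Gadd45g (53.1 ± 35.8), and 82.7 ± 8.92 in V617F, overlapping with Socs2 (72.9 ± 13.8).

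Whether the V617F effect differed between MkP and LT-HSC was tested directly, with V617F LT-HSC from males and the other 3 groups from females. No member passed, where 0.455% of all genes did with edgeR (0.427% with a higher and 0.028% with a lower effect in MkP). At an unadjusted p under 0.05 there were 3 members, Id1, Socs3 and Gadd45g, with adjusted p of 0.0639, 0.124 and 0.273. DESeq2 called these 3 and limma-voom none. Without WT LT-HSC library 30 Socs3 and Id1 passed, and Id1 also passed without WT LT-HSC library 31 or WT MkP library 30 (adjusted p = 0.0436 and 0.0491), as did Cish without WT MkP library 30 (0.00555). For Id1 and Socs3 the fitted difference rests on WT MkP libraries at 0 and is not given as a size. The Gadd45g effect was higher in MkP by a log2 difference of 2.54 ± 0.78.

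The rest of the pathway was read from lists of genes other than the members. Their counts stand beside 5.48% of all genes that rose and 7.94% that fell in CD41- HSC, and 0.221% and 0.94% in CD41+ HSC, and none is called particular to a list. Among 11 JAK kinases and STAT factors, 3 fell in V617F CD41- HSC and none rose, among them Stat2, a factor of type I interferon signalling, from 118 ± 13.9 to 87.1 ± 12.2 CPM (log2 -0.44, adjusted p = 0.0494) and Jak3, the kinase of the common gamma chain, from 520.5 ± 169 to 314 ± 36.3 CPM (log2 -0.73, adjusted p = 0.0457). The list's median log2 difference was -0.22, against -0.01 over all genes. Stat5a and Stat5b did not pass in any population, and in CD41- HSC stood at 289 to 353 and 255 to 309.7 CPM in WT against 266 to 283 and 232 to 278 CPM in V617F. Of 15 other negative regulators of the pathway, 1 passed, a share near that of all genes: the SUMO ligase Pias4, which fell from 44.2 ± 11.2 to 28.2 ± 2.77 CPM (log2 -0.65, adjusted p = 0.0308); the relatives Socs4 to Socs7 and the phosphatases Ptpn1, Ptpn2 and Ptpn6 did not pass. Of 11 measured receptors that signal through JAK2, Csf2rb, the common beta chain for IL-3, GM-CSF and IL-5, was higher in V617F, from 40.1 ± 15.5 to 97 ± 10.7 CPM (log2 1.27, adjusted p = 0.0132). Epor, the erythropoietin receptor, fell from 20.9 ± 8.21 to 9.27 ± 1.96 CPM (log2 -1.17, adjusted p = 0.0226) and Csf2ra, the GM-CSF receptor alpha chain, from 67.2 ± 17.9 to 42 ± 2.4 CPM (log2 -0.68, adjusted p = 0.0283). In CD41+ HSC only Csf2rb passed among these 3 lists, at 30.7 ± 4.11 CPM in V617F and 8.80 ± 3.18 in WT (log2 1.80, adjusted p = 0.0136).

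Of 12 other measured genes known as STAT5 targets, 1 rose and 3 fell in V617F CD41- HSC. The 1 that rose was the cytokine gene Osm, from 8.23 ± 1.75 to 15.6 ± 2.13 CPM (log2 0.92, adjusted p = 0.0166). The survival gene Bcl2 fell from 125 ± 14.1 to 75.9 ± 8.17 CPM (log2 -0.72, adjusted p = 0.00865), and the cyclin genes Ccnd1 and Ccnd3 from 29.2 ± 9.63 to 14.7 ± 4.95 CPM (log2 -0.99, adjusted p = 0.0421) and 369 ± 85.6 to 253 ± 25.3 CPM (log2 -0.55, adjusted p = 0.045). The list's median log2 difference was -0.26, below that of the 10 members at 0.36. None passed in CD41+ HSC or MkP, and in LT-HSC Ccnd1 fell from 95.4 ± 24.9 to 16.4 ± 1.32 CPM (log2 -2.54, adjusted p = 0.0233), where no member passed. Of 5 measured paralogs of the members, the Id1 relative Id3 rose in CD41- HSC from 0.296 ± 0.0956 to 1.1 ± 0.316 CPM (log2 1.86, adjusted p = 0.0203), and it was also the only 1 of 6 measured BMP and SMAD targets to pass. Id2, Gadd45a and Gadd45b did not pass. Of 7 STAT3 targets measured, Junb and Osmr fell in both CD41 fractions, Junb from 397 ± 135 to 160.0 ± 28.1 CPM (log2 -1.31, adjusted p = 0.00865) in CD41- HSC. Osmr lay under the detection floor in V617F cells, with no count in CD41- HSC and a mean of 0.0166 CPM in CD41+ HSC. The immediate early genes that fell in CD41- HSC included Egr1, from 192 ± 83.3 to 55.5 ± 19.5 CPM (log2 -1.79, adjusted p = 0.0113), Dusp2, from 272 ± 70.3 to 116 ± 31.5 CPM (log2 -1.22, adjusted p = 0.0181), and Klf4, from 1.32 ± 0.207 to 0.33 ± 0.104 CPM (log2 -1.99, adjusted p = 0.0201); in CD41+ HSC 3 of 21 fell, Egr1, Junb and Zfp36. None of the genes of these lists passed in MkP.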

How the data were processed

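Polyadenylated RNA of sorted cells was amplified with SMART-Seq v2 or v4 and made into Nextera XT libraries, per the labels' protocols. Per the submitters' processing notes the authors used STAR 2.5.2a, R 3.4.2 and limma with mm10; for the counter and annotation, nothing is given in the sources used here. The authors deposited raw counts per gene as whole numbers, with gene lengths per the file headers; its 11 entries without a symbol are still genes by identifier and were kept. Each protocol was fitted apart in R 4.3.3 with edgeR 4.0.16 (TMM, filterByExpr on groups, 1 mean per group, quasi-likelihood test), leaving 14467 genes with v4 and 14281 with v2. P-values were adjusted by Benjamini-Hochberg over all tested genes, with a threshold of 0.05. There were 10 contrasts: 4 between genotypes, 4 between populations and 2 differences of genotype effects.

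The members, lists, tests and alternatives were chosen with earlier results of these data known. All members are named; of each list, up to 4 that passed with the smallest adjusted p; some genes this rule names are not reported here. Alternatives were DESeq2 1.42.0, RLE scaling, keeping all genes or only those of 5 CPM in 3 libraries, a fit of only the groups compared, omission of each library, of the male's libraries and of X and Y genes, sex as a term and the replicate number as a block; limma-voom (limma 3.58.1) was chosen after seeing the data, except for the differences of effects. Scripts were tested on simulated counts. In the CD41 fractions, V617F libraries of the same number correlated in their deviations from group means (r = 0.301, 0.419 and 0.298 across genes), a link read from the data since the labels do not say what a number marks; other equal numbers showed none over 0.1. Promoter windows are from RefSeq (GRCm38.p6).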

Additional observations from a re-analysis of the deposited data

How the results depend on the processing

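Log2 differences were recomputed for only part of the member comparisons. Left out were, among others, Socs3, Pim2 and Id1 between genotypes in LT-HSC and Cish between genotypes in MkP. Of the 891 values recomputed, 794 kept their direction and side of the threshold, 57 lost the threshold, 33 gained it and 7 changed sign. Among these values the sign changes were all in differences that had not passed. Socs1 turned to -0.12 in CD41- and -0.13 in CD41+ HSC with the replicate block across genotypes, and ranged from -0.13 to 0.24 and from -0.0056 to 0.47 on leaving out single libraries. Pim2 in CD41+ HSC was -0.079 without the male's libraries, and -0.079 to 0.35 on leaving out single libraries. Counts of members passing moved as follows. With 1 library left out the count was 4 to 7 for genotype in CD41- HSC, 1 to 2 in CD41+ HSC, 0 in LT-HSC and 0 to 2 in MkP. It was 1 to 6 between WT fractions, 7 to 8 between V617F fractions, 0 to 1 between V617F MkP and LT-HSC, and 0 to 2 for both differences of effects. DESeq2 gave 5 between WT fractions, 2 for genotype in LT-HSC, 2 between V617F MkP and LT-HSC, and 3 for the difference of effects in the v2 libraries. Limma-voom gave 1 in LT-HSC and 2 between V617F MkP and LT-HSC. Fits of only the groups compared gave 1 for genotype in MkP, 0 between WT MkP and LT-HSC and 7 between V617F MkP and LT-HSC; the causes of these moves were not tested. Leaving out X and Y genes removes Pim2, which lies on X. With the replicate block the count between V617F fractions was 9; equal numbers in WT are not known to mark 1 mouse, and with the number as a block within genotype Cish and Socs1 passed between WT fractions (adjusted p = 0.00803 and 0.0398) and Pim1 did not (0.0808), nor did Id1 between genotypes in CD41+ HSC with the number as a block (0.0583). Sex could not be fitted as a term in LT-HSC. Members at a few CPM rest on few counts, such as 13 to 125 for Socs3 in V617F MkP libraries, which limits their precision.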

Other observations

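The genes whose level followed that of Socs2 most closely over the libraries were ranked among 8918 genes with a mean of at least 10 CPM in both protocols, by the lower of 2 Pearson correlations of log2 CPM. These were taken over the 11 v4 and the 12 v2 libraries, which share genotype and population as sources of variation, so the values only describe likeness. The first 5 were Slc17a8, a vesicular glutamate transporter (r = 0.958 with v4 and 0.857 with v2), Plxdc2 (0.940 and 0.854), Sc5d, an enzyme of cholesterol synthesis (0.965 and 0.836), Ctla2b (0.850 and 0.787) and Plscr2 (0.859 and 0.787). Only 6 members, Cish, Socs1, Socs2, Pim2, Pim3 and Gadd45g, reached that mean. Of these, Pim2 came closest to Socs2, at rank 18 (0.747 and 0.728), ahead of Cish at rank 71 (0.755 and 0.611), and Gadd45g stood at rank 8578 (-0.71 and -0.31).

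For Cish the first 5 were Dnmt3b, a DNA methyltransferase (0.905 and 0.860), Pogz (0.859 and 0.910), Bdh2 (0.838 and 0.947), Vldlr, a lipoprotein receptor (0.848 and 0.826), and Mmp2, a matrix metalloproteinase (0.949 and 0.820). WT MkP libraries 31 and 32, which had no Cish count, entered the v2 values, and their weight in these correlations was not tested. None of the 5 was among those for Socs2. Pim2 stood at rank 143 (0.919 and 0.618) and Gadd45g at rank 8906 (-0.88 and -0.22), near the opposite end for v4.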
